A study of Rattus norvegicus with 8 samples.

Results

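Transient receptor potential (TRP) channels are cation channels through which sensory neurons detect heat, cold, irritants and receptor signals. The genes described here are Trpv1, Trpa1, Trpv2, Trpm3, Trpm8, Trpc4, Trpc5 and Trpc6, taken by symbol from a gene list of 30560 genes. Of these 8, 6 had an entry. Trpc5 and Trpc6 had no entry by symbol and were not analysed here. The 6 measured genes are followed as raw transcript counts (unique molecular identifiers, UMIs) across neuron types, non-neuronal cells and pools of nodose ganglia, which house the cell bodies of vagal sensory neurons.

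Nuclear RNA came from untreated Long Evans rats that were 8 weeks old, with 18 animals of each sex. Each pool combined the left or the right ganglia of 6 rats. There were 4 groups of 3 pools, by side and by labelled sex, written ML1 to ML3, MR1 to MR3, FL1 to FL3 and FR1 to FR3. With 6 rats per pool and 18 per sex, the 3 pools of a side use every rat of that sex, so left and right pools are not independent animals.

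Trpv1 encodes the capsaicin- and heat-gated channel, and Trpa1 the channel gated by electrophilic irritants. They are known for their role in vagal C fibres, where they evoke cough and airway reflexes. Trpm8 encodes the channel gated by cold and menthol, and Trpm3 a channel gated by heat and by the steroid pregnenolone sulfate. Trpv2 encodes a relative of TRPV1, and Trpc4 a channel opened downstream of Gq- and Gi-coupled receptors. Vagal afferents arise from nodose neurons, which derive from placodes, and from jugular neurons, which derive from neural crest and use PRDM12.

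The table held 36741 nuclei, of which 36738 were kept, and the median nucleus had 2680 UMIs. Pool totals lay between 7139364 and 19456287 UMIs. Well barcodes numbered 34795, and 1865 of them occurred in more than 1 of the 8 sublibraries, while no full barcode occurred more than once. The transcripts of Y-linked genes went against the labels of 2 pools. They were at 2.88 CPM (a gene's UMIs scaled to 1000000 UMIs in all) in ML1, against 84.4 to 91.3 in the other male-labelled pools. In FL1 they were at 88.7 CPM, against 2.73 to 3.95 in the other female-labelled pools. The doublet caller marked 2 nuclei (0.00544%), so doublets were in effect not removed.

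Nuclei were clustered without any TRP gene, so that the genes described here took no part in defining the neuron types. Neurons numbered 25336, 69.0% of the nuclei, and divided into 24 subclusters. Clusters with at least 3 jugular markers are called jugular-like (2639 nuclei) and those with at least 3 nodose markers nodose-like (21619 nuclei). A further 1078 neurons had no such name. Prdm12 was at 106.7 CPM in jugular-like and 1.15 CPM in nodose-like neurons. Jugular-like neurons were 25.1% of neurons in ML1 and 20.7% in FL2, but 1.63% in ML3 and 2.67% in FR2. Values for all neurons therefore rest on unequal mixtures, and a level per class cannot tell more cells of a type from more RNA per cell.

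The upstream sequences of the channels that separated the neuron classes most are shown here, since their levels in those classes are given next. RefSeq promoter entries of the GRCr8 assembly existed for 7 of the 8 genes, with none for Trpa1. The 250 bases before the annotated start, on the plus strand, are given for Trpm8 (chr9:96351433-96351682), Trpv1 (chr10:58349686-58349935) and Trpc4 (chr2:140501046-140501295). Capitals mark matches on either strand to the TATA box (TATAAA), the GC box (GGGCGG) or the core that RUNX factors bind (TGTGGT), and no match overlapped another.
Trpm8: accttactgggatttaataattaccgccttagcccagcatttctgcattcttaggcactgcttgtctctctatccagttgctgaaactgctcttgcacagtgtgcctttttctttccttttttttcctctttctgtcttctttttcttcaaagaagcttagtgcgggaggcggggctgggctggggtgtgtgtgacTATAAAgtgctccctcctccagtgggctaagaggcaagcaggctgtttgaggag
Trpv1: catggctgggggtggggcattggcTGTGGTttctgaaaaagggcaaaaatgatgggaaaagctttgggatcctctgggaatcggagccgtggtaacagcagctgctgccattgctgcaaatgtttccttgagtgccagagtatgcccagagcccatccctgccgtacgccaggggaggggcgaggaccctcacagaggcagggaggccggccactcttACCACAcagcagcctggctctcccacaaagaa
Trpc4: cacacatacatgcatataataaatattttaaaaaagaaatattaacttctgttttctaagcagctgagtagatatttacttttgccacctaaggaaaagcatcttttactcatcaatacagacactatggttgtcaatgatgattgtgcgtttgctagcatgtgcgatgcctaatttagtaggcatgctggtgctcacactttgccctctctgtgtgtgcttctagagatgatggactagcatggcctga
The Trpm8 window held TATAAA 54 bases before the start. The Trpv1 window held TGTGGT 226 bases before the start and its reverse complement at 32 bases. The Trpc4 window held none of the motifs. Among 33469 promoter entries, windows of the same length held TATAAA in 12.9%, GGGCGG in 30.5% and TGTGGT in 14.5%. These matches describe letters only.

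Across all neurons the channels differed in how evenly the pools shared them. In CPM, the mean over 12 pools was 86.0 ± 9.10 for Trpv1 (SD, lowest 68.1, highest 100.03). Trpa1 averaged 364 ± 37.2 CPM (SD, 306 to 430) and Trpc4 269 ± 27.9 CPM (SD, 218 to 319). Trpv2 averaged 40.3 ± 2.74 CPM (SD, 36.3 to 44.4) and Trpm3 2618 ± 226 CPM (SD, 2332 to 3040). Trpm8 averaged 34.3 ± 20.8 CPM and ran from 9.73 in ML3 to 83.5 in ML1, the widest spread relative to its mean among the 6. CPM values are not adjusted for gene length, so levels are compared between groups of nuclei and not between genes. Neurons held 68.7% of all UMIs in the kept nuclei. Their share of a channel's own UMIs ranged from 76.2% for Trpv2 to 84.3% for Trpc4. The remaining UMIs cannot all be placed in non-neuronal cells. Nuclei outside the neurons include 2638 in neuron clusters led by another class's markers and 1586 in unnamed clusters. In the unnamed o9, Trpa1 was at 128% and the summed nodose markers at 150% of their levels in neurons.

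Detection per neuron was compared after each nucleus had been thinned to 1000 UMIs, which left out 980 neurons below that depth and kept 24356. At that depth 19.5% of neurons had a Trpa1 UMI (95% exact binomial interval 19.01 to 20.01). Trpc4 was found in 20.3% (19.8 to 20.8), Trpv1 in 7.57% (7.24 to 7.91) and Trpv2 in 3.60% (3.37 to 3.84). Trpm3 was found in 73.3% (72.7 to 73.8) and Trpm8 in 1.97% (1.80 to 2.15). With all UMIs the shares were higher, at 35.5% for Trpa1, 42.3% for Trpc4 and 22.8% for Trpv1. The intervals cover counting error only, and detection at this depth misses cells with few transcripts.

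**Figure D1:**
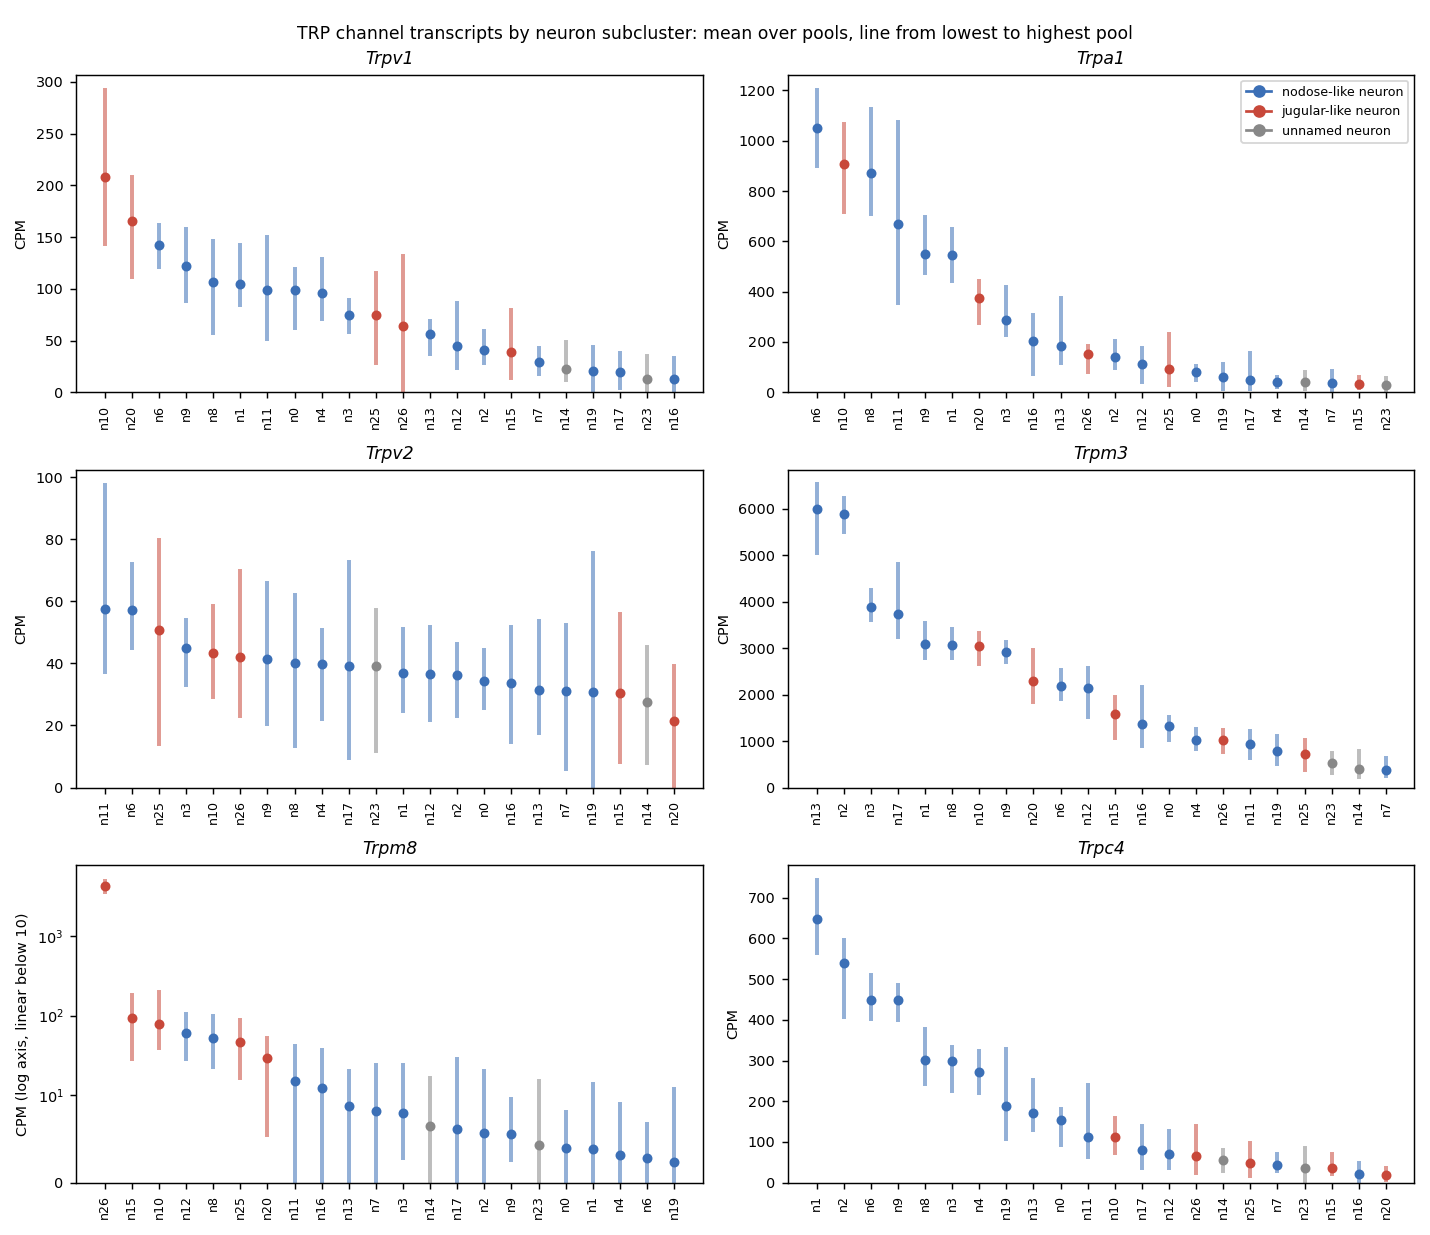
Level of each channel in the 22 neuron subclusters that had at least 20 nuclei in 3 or more pools. The vertical axes give CPM (a log axis for Trpm8), points are means over pools, lines run from the lowest to the highest pool, and colours mark nodose-like, jugular-like and unnamed subclusters. Trpm8 is concentrated in n26, Trpv2 is spread over all subclusters, and Trpv1 and Trpa1 both have high values in n6 and n10.

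Trpm8 was the most concentrated of the channels. Subcluster n26, with 183 jugular-like neurons (0.722% of neurons), carried 1884 of the 3415 neuronal Trpm8 UMIs, or 55.2%. Its level was 4396 ± 548 CPM (SD, 4 pools with at least 20 of these nuclei, 3689 to 4989). In the 4 pools the values were 4989 CPM in ML1, 3689 in MR2, 4601 in FL2 and 4304 in FR3. The next subclusters, n15 and n10, averaged 92.0 ± 47.1 and 77.5 ± 50.8 CPM (SD over 10 and 11 pools), and their pool ranges overlapped each other but not that of n26. The nodose-like n12 and n8 followed at 60.6 ± 25.3 and 52.9 ± 20.8 CPM (SD, 12 pools each), overlapping n15 and n10. Their means were above those of the jugular-like n25 (46.2 CPM, 4 pools) and n20 (28.9 CPM, 5 pools). At 1000 UMIs, 92.0% of n26 nuclei had a Trpm8 UMI (95% exact binomial interval 86.8 to 95.7). The lowest level was 2.39 CPM in n19.

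The number of n26 neurons differed between pools and so did neuronal Trpm8. ML1 held 50 of them, FR3 37, MR2 21 and FL2 20, whereas ML3 held 0 and FL1 1. Neuronal Trpm8 was 83.5 CPM in ML1 and 9.73 CPM in ML3. Without n26, Trpm8 in neurons ran from 9.41 CPM in FR2 to 26.6 CPM in MR3. The other channels were not high in n26: Trpm3 was at 1013 ± 198 CPM (SD, 4 pools) and Trpa1 at 151 ± 50.2 CPM (SD, 4 pools). Over the 24 subclusters, the genes whose levels followed Trpm8 most closely were Foxp2 (Pearson r = 0.83 of log2(CPM + 1)), Dok4 (0.79) and Rora (0.78). Foxp2 and Rora encode transcription factors.

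Trpv1 was highest in n10, a jugular-like subcluster led by the neuropeptide genes Tac1 and Calca. There it averaged 208 ± 35.6 CPM (SD, 11 pools, 143 to 292). The jugular-like n20 followed at 165 ± 49.4 CPM (5 pools) and the nodose-like n6 at 142 ± 12.9 CPM (12 pools), and the pool ranges of neighbours in this order overlapped. The lowest level was 12.4 ± 9.14 CPM in n16 (SD, 12 pools). A Trpv1 UMI at 1000 UMIs was found in 16.9% of n10 nuclei (14.7 to 19.3) and 2.59% of n16 nuclei. No subcluster held most of the transcripts: n6 carried the largest part, 17.2% of neuronal Trpv1 UMIs. The closest genes were C1qtnf2 (r = 0.85), Herc1 (0.84) and Arl4a (0.83).

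Among subclusters with at least 3 pools, Trpa1 had its highest level in n6, at 1050 ± 97.5 CPM (SD, 12 pools, 898 to 1203). The subcluster n10 followed at 906 ± 120 CPM (11 pools) and the nodose-like n8 at 871 ± 116 CPM (12 pools), and these ranges overlapped. The small nodose-like n27 was at 1166 CPM over its 2 pools, with the satellite glia gene Apoe among its leading genes. The lowest level was 29.0 ± 16.4 CPM in n23 (10 pools). In n6, 56.4% of nuclei had a Trpa1 UMI at 1000 UMIs, against 2.23% in n23. Subclusters n6, n10, n9, n8 and n1 had high levels of both Trpa1 and Trpv1, and over the 24 subclusters the log2 levels of the pair had r = 0.73. The subclusters n0 and n4 differed from these, with Trpv1 at 98.9 and 95.6 CPM and Trpa1 at 81.1 and 42.1 CPM. Dync1i2 (r = 0.80), Fkbp1b (0.78) and Sh3bgrl (0.76) followed Trpa1 most closely.

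Trpm3 varied widely within the nodose-like neurons. It was at 6005 ± 477 CPM in n13 and 5894 ± 222 CPM in n2 (SD, 12 pools each), 2 subclusters whose pool ranges overlapped, and the range of n2 did not overlap that of the next, n3 (3898 ± 195 CPM, 12 pools). Trpm3 was lowest in n7, at 379 ± 106 CPM (12 pools). At 1000 UMIs, 98.7% of n2 nuclei and 24.1% of n7 nuclei had a Trpm3 UMI. The genes closest to it were Zfp40 (r = 0.86), Gnaq (0.84), which encodes the alpha subunit of Gq, and Atp8a1 (0.79).

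The highest Trpc4 levels were in nodose-like subclusters. It averaged 647 ± 59.4 CPM in n1, 540 ± 50.3 in n2, 448 ± 32.2 in n6 and 447 ± 28.4 in n9 (SD, 12 pools each). The range of n9 did not overlap that of n8, at 302 ± 38.2 CPM (12 pools). In the jugular-like subclusters it ran from 18.5 ± 10.96 CPM in n20 to 111 ± 29.8 CPM in n10 (SD, 5 and 11 pools). The nodose-like n16 was as low, at 21.7 ± 12.4 CPM (12 pools). Its nearest genes were Frmpd1 (r = 0.89), Cacng4 (0.89) and Phlpp2 (0.88).

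Trpv2 differed little between neuron types. Its highest mean was 57.4 ± 17.8 CPM in n11, a subcluster led by Spp1 and the neurofilament gene Nefh, and its lowest 21.4 ± 15.3 CPM in n20 (SD, 12 and 5 pools). Every pair of neighbours in the order overlapped, which also held for Trpv1 and Trpa1. Subclusters further apart could differ: n6 ran from 45.0 to 72.1 CPM and n0 from 25.7 to 44.2 CPM. Apc2 (r = 0.89), Zfp106 (0.89) and Paqr7 (0.88) had the most similar levels. All such correlations are descriptions over 24 subclusters that share the same pools and depth, from 10627 genes compared.

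Jugular-like and nodose-like neurons were compared within the same 12 pools, with pool as a block. The comparison asks which channels distinguish the neural crest-type from the placode-type neurons. In edgeR's quasi-likelihood test, 39.7% of the 11747 genes tested differed at an adjusted p under 0.05, and the count for the channels is read against that share. Of the 6 channels, 3 were higher in jugular-like neurons, 2 were lower and 1 did not pass. Their median log2 difference was 0.16, against 0.00340 over all genes tested.

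Trpm8 was higher in jugular-like neurons in 12 of 12 pools. The values were 24.2 to 421 CPM (median 237) in jugular-like and 7.35 to 14.95 CPM (median 10.8) in nodose-like neurons, with no overlap. The log2 difference was 4.46 ± 0.15 (SE, edgeR adjusted p = 3.29e-26), and 2.66 ± 0.15 (adjusted p = 9.94e-19) when n26 was left out of the jugular-like neurons. The jugular-like pools without n26 ran from 24.2 to 139 CPM, still above every nodose-like pool. These are class levels: the means of the nodose-like subclusters n12 (60.6 CPM) and n8 (52.9 CPM) lay within that jugular-like range.

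Trpc4 was lower in jugular-like neurons in 12 of 12 pools. The pools ran from 53.0 to 94.1 CPM (median 64.8) in jugular-like and from 237 to 336 CPM (median 314) in nodose-like neurons. The ranges did not overlap, and the log2 difference was -2.11 ± 0.07 (SE, edgeR adjusted p = 2.18e-26). Trpm3 was also lower in 12 of 12 pools, at 2311 ± 296 against 2784 ± 252 CPM (SD, n = 12 pools each), a log2 difference of -0.24 ± 0.05 (SE, edgeR adjusted p = 2.15e-05).

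Trpv1 and Trpa1 were higher in jugular-like neurons as a class, and this rested on n10. Trpv1 was at 130 ± 21.8 CPM in jugular-like and 84.4 ± 8.48 CPM in nodose-like neurons (SD, n = 12 pools each) and was higher in 11 of 12 pools. The log2 difference was 0.68 ± 0.06 (SE, edgeR adjusted p = 5.10e-12). Trpa1 was at 492 ± 106 against 367 ± 31.0 CPM and higher in 10 of 12 pools, a log2 difference of 0.46 ± 0.06 (SE, edgeR adjusted p = 3.66e-08).

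With n10 left out, both differences turned. Trpa1 in the other jugular-like neurons was at 116 ± 44.1 CPM (SD, 11 pools with at least 20 such nuclei) and below the nodose-like value in 11 of 11 of them, a log2 difference of -1.57 ± 0.10 (SE, edgeR adjusted p = 1.46e-20). Trpv1 was at 63.8 ± 22.6 CPM (SD, 11 pools) and below the nodose-like value in 9 of 11, a log2 difference of -0.31 ± 0.11 (SE, edgeR adjusted p = 0.0163). Trpm3 then differed by -0.78 ± 0.06 and Trpc4 by -3.07 ± 0.10 on the log2 scale. In n10 itself, Trpa1 was higher than in nodose-like neurons in 11 of 11 pools and Trpv1 in 11 of 11. The jugular-like n20 still had Trpv1 at 165 ± 49.4 CPM (SD, 5 pools, 112 to 208), above every nodose-like pool (67.4 to 97.0). Leaving out n10 was chosen after the values were seen. Among jugular-like subclusters with at least 3 pools, n10 had the highest level of both channels, so leaving it out lowers the remainder.

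Trpv2 was at 34.5 ± 11.3 CPM in jugular-like and 41.3 ± 2.48 CPM in nodose-like neurons (SD, n = 12 pools each) and did not pass (log2 difference -0.14 ± 0.10, edgeR adjusted p = 0.277). It was lower with n10 left out (-0.36 ± 0.14, adjusted p = 0.0297) and with clusters made at resolution 0.5 (-0.24 ± 0.10, adjusted p = 0.0424). In the 1 pool with the fewest jugular-like neurons, ML3 with 23, it was at 12.1 CPM, the lowest value. Trpa1 did not pass with clusters made at resolution 2 (0.15 ± 0.08, adjusted p = 0.121).

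**Figure D2:**
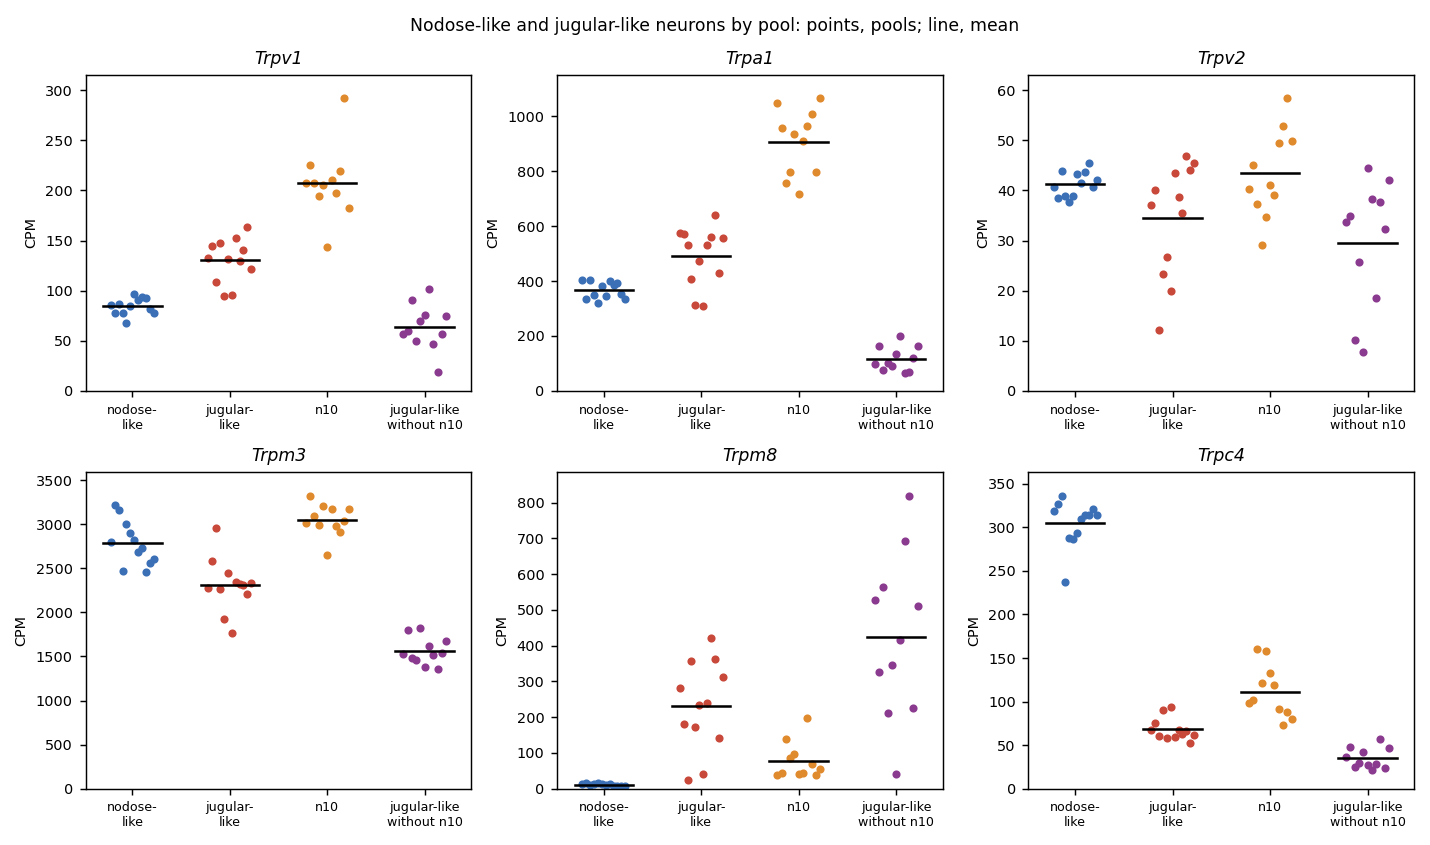
Level of each channel in nodose-like neurons, jugular-like neurons, the jugular-like subcluster n10 and the remaining jugular-like neurons. The vertical axes give CPM, each point is a pool with at least 20 such nuclei, and the line is the mean. For Trpa1 the n10 pools lie at 717 CPM and above while the jugular-like neurons without n10 lie at 199 CPM and below, on either side of the nodose-like pools.

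Other members of the family were tested in the same fit. Of 11 that passed the low-count filter, 4 were higher in jugular-like neurons and 3 lower, where 39.7% of all genes tested were called. DESeq2 called 2 higher and 3 lower. With n10 left out, edgeR called 2 higher and 3 lower of 10. Trpm6, a magnesium-permeable channel with a kinase domain, was higher by 1.88 ± 0.16 on the log2 scale, and Trpm2, gated by ADP-ribose, by 0.53 ± 0.15 (SE). Trpv3, a warmth-activated channel, was higher by 0.65 ± 0.24 and Trpm7 by 0.25 ± 0.06. The Trpv3 value rests on few counts, with 432 UMIs in all neurons, 40.6% of its UMIs in the kept nuclei. Among those lower were Trpc7 (-1.93 ± 0.17), a channel opened by diacylglycerol, and Pkd2 (-0.46 ± 0.08). Trpm4 and Trpc1 did not pass, with log2 differences of 0.01 and -0.09. Averaged over all neurons, those with the highest levels included Trpm7 (144 CPM), Trpc1 (108), Pkd2 (63.9) and Trpm4 (29.9).

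Of 36 tested genes that sensitise, bind or act with these channels, 15 were higher and 11 lower in jugular-like neurons, where 39.7% of all genes in the fit were called. The 2 with the largest positive differences were Tac1 (5.33 on the log2 scale) and Calca (5.26), both class markers. The 2 with the largest negative differences were Itpr1 (-2.45), a calcium store receptor, and Plcb4 (-1.36), a phospholipase C. The others named here were chosen after their values were seen. These genes could take part in the clustering, so their differences are descriptions. Bdkrb2, the bradykinin B2 receptor, was higher by 3.25 on the log2 scale. Tmem100, which binds TRPA1 and TRPV1, was higher by 2.21, and the kinase gene Prkca by 1.25. Plcb3, a further phospholipase C gene, differed by -1.14. Oprm1, the mu opioid receptor, whose Gi/o signalling inhibits TRPM3, differed by -1.29. Pirt, a TRPV1-binding protein, did not pass (-0.10).

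Detection of channels in the same neurons was then compared. For each pair, the share of neurons with the second gene was compared between neurons with and without the first, in each pool, at 1000 UMIs per nucleus. Of 15 pairs, 8 passed an exact two-sided sign-flip permutation test over 12 pools with Benjamini-Hochberg adjustment over the pairs, 7 with more and 1 with less joint detection. The smallest p the test can give is 0.000488.

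Trpa1 was found in 29.0% ± 3.06 of neurons with Trpv1 and in 19.0% ± 1.79 of those without (SD, n = 12 pools, higher in 12 of 12, exact permutation adjusted p = 0.00146). Trpc4 was found in 23.7% ± 2.72 of neurons with Trpm3 and in 11.5% ± 1.62 of those without (SD, n = 12 pools, higher in 12 of 12, exact permutation adjusted p = 0.00146). Trpm3 with Trpa1 (12.7 points more), Trpc4 with Trpa1 (8.31 points) and Trpm3 with Trpv1 (7.04 points) were also higher in 12 of 12 pools. Trpc4 was less frequent in neurons with Trpm8, at 12.01% ± 3.69 against 20.6% ± 2.48 (SD, n = 12 pools, lower in 11 of 12, exact permutation adjusted p = 0.00244). The pair of Trpv1 and Trpm8 did not pass, with a mean difference of 0.147 points that ran from -3.01 to 4.102 between pools.

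Within neuron subclusters, none of the 15 pairs passed. The difference for Trpa1 with Trpv1 was 3.35 points there, positive in 10 of 12 pools (exact permutation p = 0.0103, adjusted p = 0.128). For Trpm3 with Trpm8 it was 0.799 points (9 of 12 pools, p = 0.0171, adjusted p = 0.128 by the same exact permutation test), and for Trpc4 with Trpm3 2.38 points (9 of 12 pools, p = 0.0342, adjusted p = 0.171). These 3 were the pairs under 0.05 before adjustment. Trpm3 with Trpa1 came to 0.955 points and Trpc4 with Trpa1 to 1.13 points. A pair that misses the threshold within subclusters is not shown to be independent there. With all UMIs of each nucleus and no thinning, 15 of 15 pairs passed in the direction of more joint detection, other than Trpm8 with Trpc4. Depth was not matched in that setting.

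**Figure D3:**
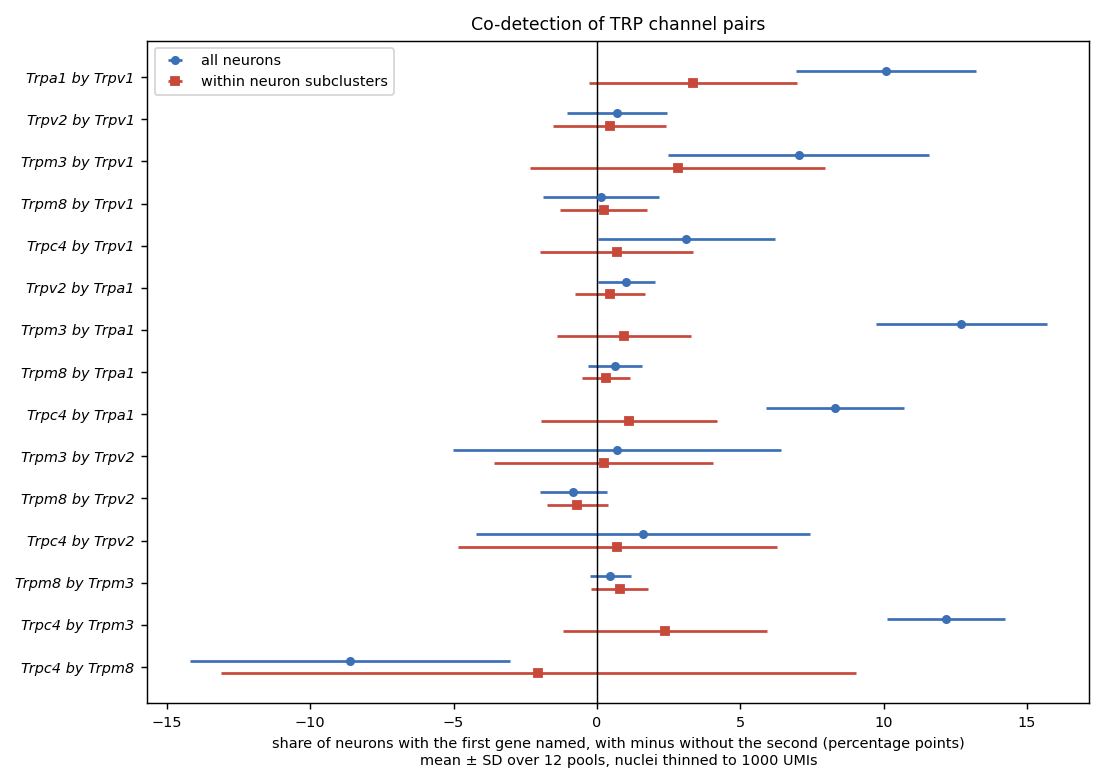
Difference in detection for each of the 15 pairs of channels, over all neurons and within neuron subclusters. The horizontal axis gives the share of neurons with the gene named first among those with the second minus that among those without (percentage points), as the mean ± SD over 12 pools. Blue points for Trpa1, Trpm3 and Trpc4 with one another lie between 8.31 and 12.7, and the red points for the same pairs between 0.955 and 2.38.

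At 1000 UMIs, 19.2% of neurons had a UMI of none of the 6 channels, 45.0% of 1, 27.1% of 2 and 7.89% of 3. Leaving Trpm3 aside, 58.1% had none of the other 5, 31.8% had 1 and 9.08% had 2.

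Outside the neurons, all 6 channels were lower in satellite glia, the cells that wrap neuron bodies, than in the whole neuron class. In edgeR's test with pool as a block, 72% of 12169 genes differed between neurons and satellite glia. The log2 difference was 1.62 ± 0.08 for Trpc4, 1.31 ± 0.05 for Trpa1 and 1.09 ± 0.13 for Trpm8 (SE, edgeR adjusted p = 1.04e-18, 2.10e-20 and 1.19e-08). It was 0.80 ± 0.07 for Trpv2, 0.67 ± 0.06 for Trpv1 and 0.60 ± 0.04 for Trpm3 (SE, edgeR adjusted p = 9.55e-12, 4.00e-11 and 6.98e-14). Each was higher in neurons in 12 of 12 pools. The median of the 6 was 0.94 and that of all genes -0.03. Of 12 other family members tested, 6 were higher in neurons and 2 lower, Trpv3 (-1.38 ± 0.14) and Trpc2 (-0.56 ± 0.16). Of 35 partner genes, 22 were higher in neurons and 9 lower.

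Neuronal transcripts were present in every non-neuronal class, and the channels were set beside them. The summed level of the 7 nodose marker genes in satellite glia was 68.7% ± 11.8 of that in neurons (SD, n = 12 pools). Over all nuclei, single markers there ran from 47.0% to 182.9%, with a median of 98.2%. Trpm3 stood at 73.6% ± 5.18, Trpv1 at 68.5% ± 11.5 and Trpv2 at 65.5% ± 9.90 of their neuronal levels. Trpa1 stood at 45.3% ± 6.74 and Trpc4 at 37.8% ± 9.46. The pool ranges of all 5 overlapped that of the summed markers, and whether the glia transcribe the channels was not tested.

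Trpm3 stood above the summed nodose markers in myelinating Schwann cells. There it was at 61.6% ± 7.15 of its neuronal level (SD, n = 12 pools, 45.7 to 73.6), while the summed nodose markers were at 32.6% ± 7.38 (17.3 to 42.9), and the ranges did not overlap. Single markers spread more widely. Over all nuclei they ran from 25.15% to 68.2%, with a median of 38.5%, so the highest marker was above Trpm3 (61.45%). Whether Schwann cells transcribe Trpm3 was not tested. The Trpm3 level was 1601 ± 135 CPM in Schwann cells, 1921 ± 146 in satellite glia and 904 ± 122 in endothelial cells (SD, n = 12 pools each). Trpa1 (25.4% ± 7.78) and Trpc4 (19.2% ± 7.25) were lower than the summed markers in Schwann cells on average. Satellite glia subclusters differed in how Trpm3 stood to the summed markers. In o0, with 565 nuclei, Trpm3 was at 97.3% of its level in neurons and the summed nodose markers at 34.4%. In o3 Trpm3 was at 57.8% and the summed markers at 101.7%. Trpm3 was also below the summed markers in o1, o2 and o15, and above them in o10, o14, o16, o17 and o19. The median single marker was nevertheless above Trpm3 in o14 (88.6% against 70.5%) and o17 (73.9% against 64.9%), though not in o10, o16 and o19. The highest single marker was above Trpm3 in each of o10, o14, o16, o17 and o19, but not in o0. In mural cells, with 226 nuclei, Trpm3 was at 16.5% and the summed markers at 16.8%. Trpm3 had the higher share of nuclei with a UMI in satellite glia (79.4%, 95% exact binomial interval 78.1 to 80.8) than in neurons (73.3%), against the order of the CPM, so no order is read from these shares.

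Trpm8 in satellite glia varied with the pool, from 3.75 CPM in FL3 to 65.9 CPM in ML1. The 3 highest pools were ML1, FL2 (39.9 CPM) and MR3 (34.7 CPM), which also had the 3 highest neuronal Trpm8 levels (83.5, 55.7 and 42.0 CPM). Subcluster o16, with 256 of the 3734 satellite glia, held 122 of their 266 Trpm8 UMIs. The summed jugular markers there were at 320 CPM, against 129 CPM in the other satellite glia, while the nodose markers were at 215 against 394 CPM. Without o16, glial Trpm8 was at 9.90 CPM. The part of these neuronal transcripts in the glial Trpm8 values was not tested.

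**Figure D4:**
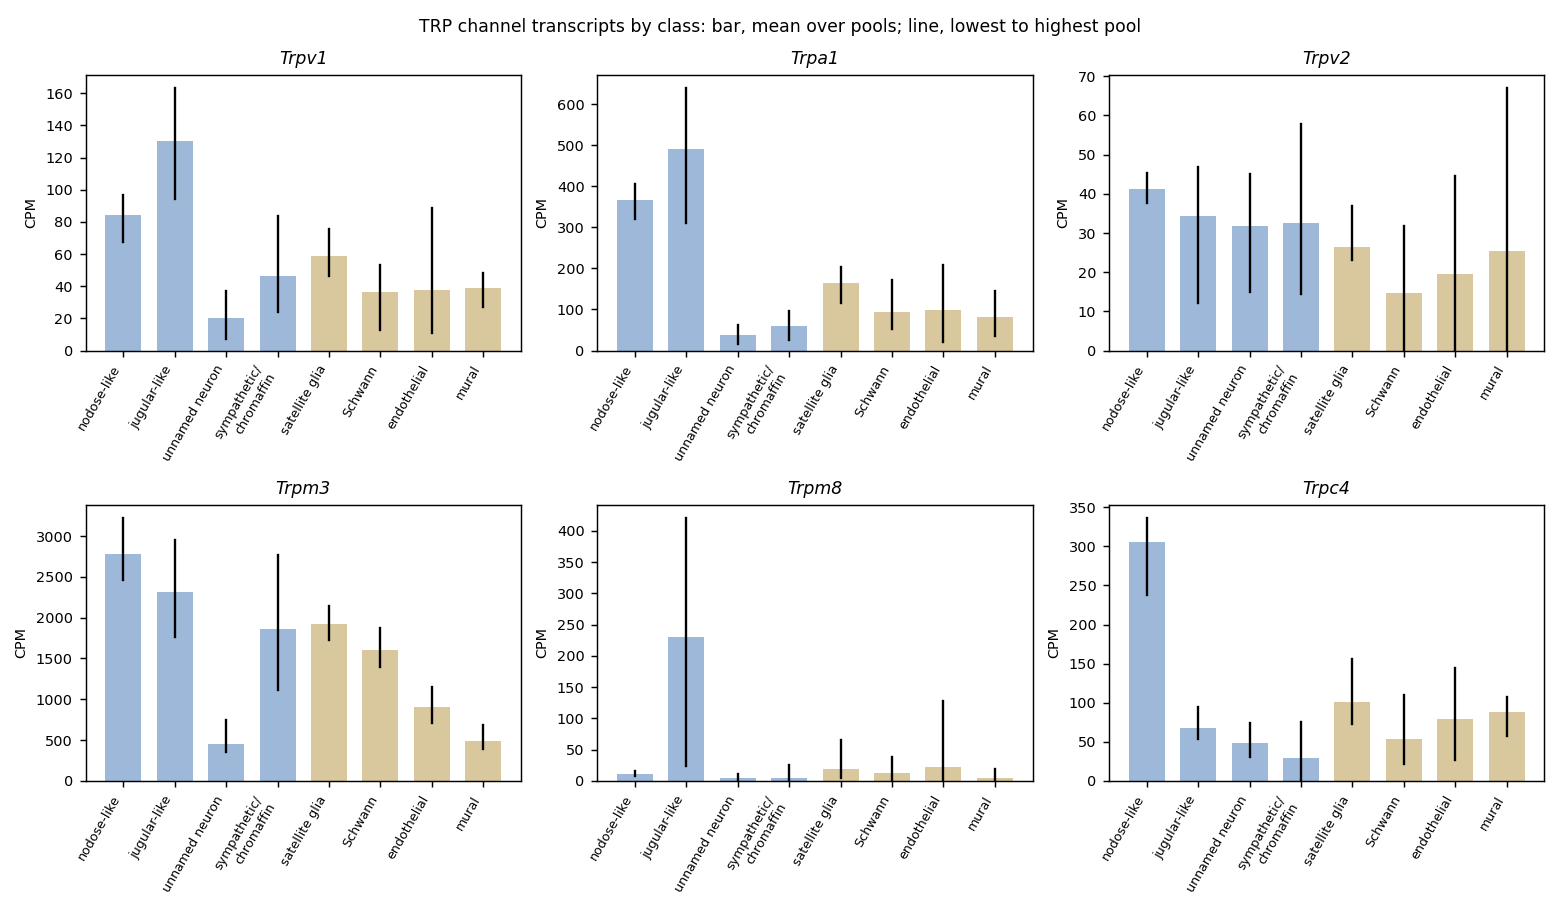
Level of each channel by class. The vertical axes give CPM, bars are means over pools with at least 20 nuclei of the class, lines run from the lowest to the highest pool, blue bars are neuron classes and tan bars non-neuronal ones. Trpc4 in nodose-like neurons (305 CPM) and Trpm8 in jugular-like neurons (231 CPM) have means above every other class, while Trpm3 reaches 1921 CPM in satellite glia.

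Left and right ganglia were compared in neurons with labelled sex as a further term. Of the 13935 genes tested, 0.115% differed at an adjusted p under 0.05, and none of the 6 channels did, though 2 had an unadjusted p under 0.05 by edgeR. DESeq2 and limma-voom also called none of the 6. The other 12 family members and 37 partner genes tested included no call either.

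Trpv1 ran from 83.2 to 99.3 CPM in left pools (median 92.2) and from 68.1 to 95.1 CPM in right pools (median 78.4), scaled to TMM library sizes. The groups overlapped, and the log2 difference, right over left, was -0.19 ± 0.07 (SE, edgeR adjusted p = 0.628). Trpm3 ran from 2513 to 3119 CPM on the left (median 2649) and from 2301 to 2767 CPM on the right (median 2411), a log2 difference of -0.13 ± 0.06 (SE, edgeR adjusted p = 0.724). Trpa1 differed by -0.14 ± 0.08, Trpc4 by -0.08 ± 0.08 and Trpv2 by -0.07 ± 0.06. For Trpm8 the estimate was -0.30 ± 0.41, with left pools from 9.99 to 84.6 CPM and right pools from 10.6 to 42.9 CPM, and it ran from -0.51 to 0.11 over the alternatives. In all 6 the estimate was lower on the right, and the median was -0.14 against -0.00857 over all genes tested.

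By labelled sex, 0% of genes were called in neurons by edgeR and 2656 genes had an unadjusted p under 0.05; DESeq2 called 366. None of the 6 channels was called by edgeR, DESeq2 or limma-voom, and 1 had an unadjusted p under 0.05. These fits count left and right pools, which use the same rats, as independent replicates. They also keep ML1 and FL1 under labels that their Y-linked transcripts went against. Without both pools, edgeR called 28 genes and none of the 6 channels. Trpm3 was at 2301 to 3119 CPM in male-labelled pools (median 2760) and 2383 to 2711 CPM in female-labelled pools (median 2466). The log2 difference, female- over male-labelled, was -0.14 ± 0.06 (SE, edgeR adjusted p = 0.198). In the fit of side by labelled sex, 0% of genes were called by edgeR and by DESeq2, with 569 at an unadjusted edgeR p under 0.05, Trpc4 among them (0.33 ± 0.14, edgeR adjusted p = 0.9998).

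**Figure D5:**
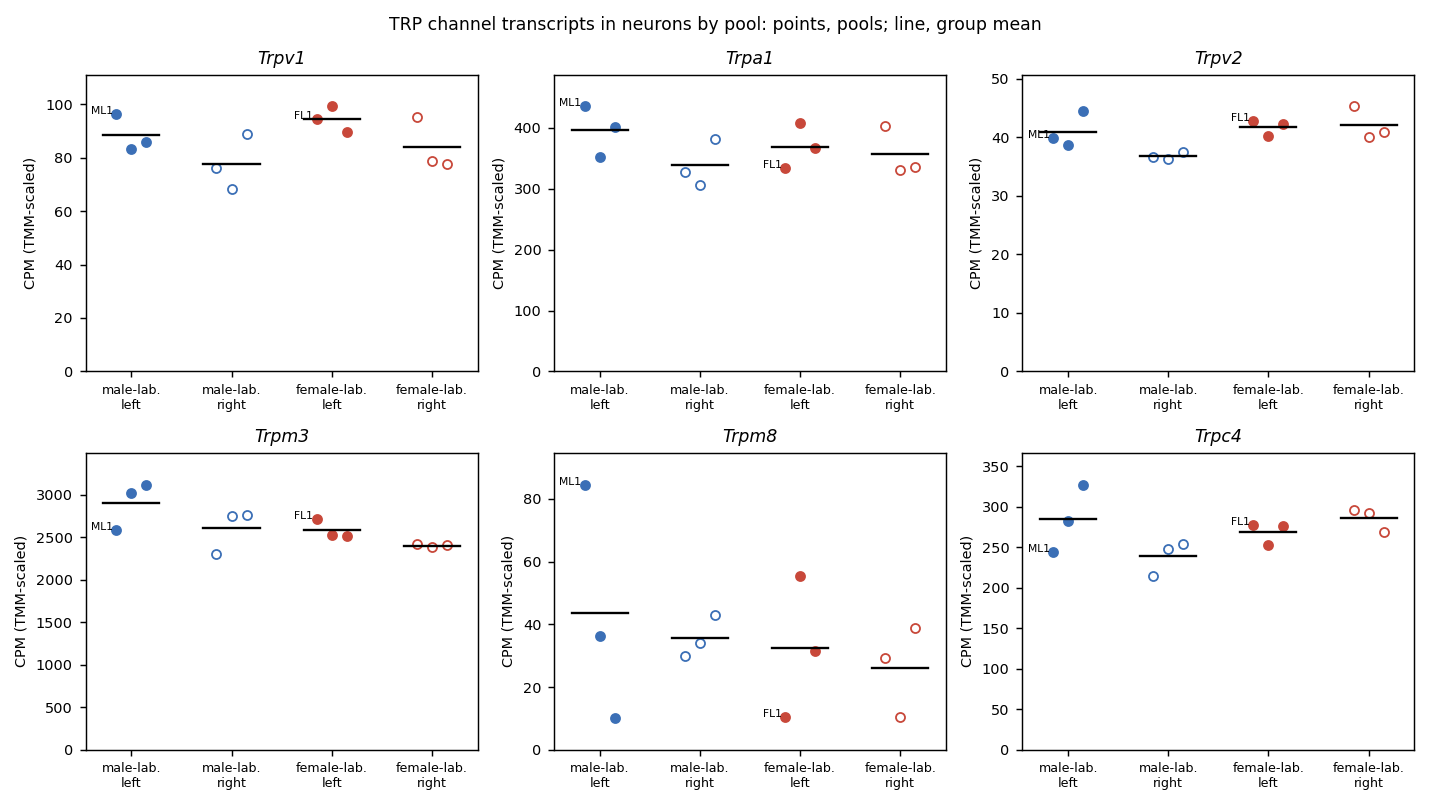
Level of each channel in the neurons of every pool, by labelled sex and side. The vertical axes give CPM scaled to TMM library sizes, points are pools (filled for left, open for right), lines are group means, and the 2 pools whose Y-linked transcripts went against their labels are marked. Left and right pools overlap for every channel, and Trpm8 runs from 9.99 to 84.6 CPM.

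Within classes the result was similar. In nodose-like neurons 0.503% of genes were called by side and 0.219% by labelled sex, and none of the 6 channels in either, though 2 had an unadjusted p under 0.05 in each. Trpm8 came closest, at 9.72 to 15.1 CPM in male-labelled and 7.23 to 13.2 CPM in female-labelled pools, which overlapped. Its log2 difference was -0.57 ± 0.13 (SE, edgeR adjusted p = 0.066). DESeq2 called it (-0.57, adjusted p = 0.00984), and it passed in edgeR without MR1 (-0.60, adjusted p = 0.0234), as did Trpm3 (-0.21, adjusted p = 0.0111). Over the 14 alternatives for Trpm8 the adjusted p ran from 0.00984 to 0.191. Without ML1 and FL1 together it was 0.0988 by edgeR, with a log2 difference of -0.58.

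In jugular-like neurons 0% of 7764 genes were called by side and 0% by labelled sex, with 279 and 545 at an unadjusted p under 0.05 by edgeR, while DESeq2 called 0 and 1. None of the 6 channels was called, and by unadjusted p 0 and 1 of them were under 0.05, the latter Trpv2 (0.47 ± 0.18, SE). The pools held from 23 to 640 of these nuclei. Trpm8 ran from 25.0 to 437 CPM there, with a side difference of 0.19 ± 0.29 on the log2 scale. In satellite glia 0% of 10349 genes were called by side and 0.029% by labelled sex, and none of the 6 channels by edgeR or DESeq2, with 2 and 1 of them at an unadjusted edgeR p under 0.05. The estimate for Trpm8 in satellite glia, female- over male-labelled, was -1.34 ± 0.39 (SE, edgeR adjusted p = 0.326), with ML1 at 67.2 and FL2 at 40.5 CPM the highest of each. Without ML1 and FL1, the pools whose Y-linked transcripts went against their labels, it was -0.59 ± 0.37 (SE, edgeR adjusted p = 0.667).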

How the data were processed

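The authors deposited raw UMI counts per nucleus and gene, with no normalisation, and a table of pool names. Per the submitters' processing notes, R 4.3.2, Seurat 4.1.3 and the build mRatBN7.2 were used. The aligner is not given in the sources used here. Nuclei were fixed and barcoded with Evercode version 2 kits, per the labels' protocols. GEO's samples are 8 sublibraries that each mix all 12 pools; groups were read from pool names, and pools are the replicates. P-values measure the spread between pools. The labelled-sex fits treat left and right pools as independent although they use the same rats, so their p-values can be too small.

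Nuclei under 300 genes or above 5% mitochondrial UMIs were removed. Scanpy 1.11.5 gave 3000 variable genes without TRP genes, 30 principal components, 20 neighbours and Leiden clusters (leidenalg 0.10.2, resolution 1). Neurons and other nuclei were clustered again on Pearson residuals of 2000 genes. Clusters were named from marker lists when at least 3 markers were 2-fold higher (neuron markers 1.5-fold). UMIs were summed per pool and class and tested with edgeR 4.0.16 (quasi-likelihood, TMM, filterByExpr) in R 4.3.3, with adjustment over all genes; a gene counts as called below an adjusted p of 0.05. DESeq2 1.42.0, limma 3.58.1, other scalings, filters, clusterings and leaving out each pool were alternatives. The count test was tested on simulated data with known changes.

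All 6 genes found are described, with family members called or among the 5 highest in neurons, and the 3 genes most like each by correlation; some genes under this rule are not reported here. The members, lists and marker sets were chosen with earlier results of these data known.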

Additional observations from a re-analysis of the deposited data

How the results depend on the processing

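The count of channels called kept within 1.5 times its main value in all alternatives for side, side by labelled sex, jugular-like neurons, satellite glia, jugular-like against nodose-like neurons and neurons against satellite glia. The exceptions were labelled sex in nodose-like neurons (0 called), where DESeq2 called 1 and the fits without 1 pool called 0 to 2, the 2 without MR1, and co-detection (8 pairs), where 15 pairs passed with all UMIs and 0 within subclusters. Without subcluster n10 the jugular-like difference reversed for Trpa1 (-1.574 on the log2 scale) and Trpv1 (-0.3141), and with all UMIs the joint detection of Trpv2 and Trpm8 reversed (1.473 points); the cause was not tested. Whether same-numbered left and right pools share rats is not stated. The correlations of their deviations ran from -0.0803 to 0.185. Low values cannot exclude shared rats, because each deviation also holds the noise of its own pool. The Y-linked transcripts of ML1 (2.88 CPM) and MR1 (91.3 CPM) differed, as did those of FL1 (88.7 CPM) and FR1 (3.95 CPM). With pool number as a replicate block, 0 channels and 2 genes in all were called by side, against 16 without it. DESeq2 called 67 genes by side, limma-voom 21, and 61 were called with jugular-like neurons left out; without ML1 and FL1 together 3 were, at resolution 2 6, with TRP genes kept 10, with no low-count filter 51, and without 1 pool as few as 1 (MR3 or FR2). By labelled sex no gene was called in the main edgeR test or by limma-voom, 366 by DESeq2, 40 with jugular-like neurons left out 28 without ML1 and FL1, 480 with no low-count filter and up to 545 without 1 pool (MR1). In nodose-like neurons 69 genes were called by side (129 by DESeq2, 39 to 108 without 1 pool, 16 without ML1 and FL1) and 30 by labelled sex (364, 0 to 732 and 78). By labelled sex in jugular-like neurons 0 became 25 without ML1 and FL1 and up to 18 without 1 pool (ML1), and in satellite glia 3 became 33 and 0 to 21. The highest subcluster was the same at 2000 UMIs for 5 of 6 channels, without the highest doublet scores for 5 and with TRP genes kept for clustering for 5; Trpv2 changed in the first 2 and Trpm3 in the last. No paired analysis was possible for labelled sex because the sexes are different animals and the deposited pool numbers, 1 to 3 for male-labelled and 4 to 6 for female-labelled pools (written FL1 to FL3 and FR1 to FR3 here), are not shared, and levels per kb were not run, since the builds differ. Trpv2 and Trpm8 were found in under 4% of neurons at 1000 UMIs, a depth at which cells with few transcripts can be missed. For Trpm8 the share was 92.0% in n26 at the same depth.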
